A study of Homo sapiens with 19 samples.

Results

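BHLHE40 and 9 other genes of the circadian clock and its output (BHLHE41, PER1, PER2, PER3, CRY1, CRY2, NR1D2, DBP and TEF) were followed across SKBR3 cells exposed to a chemotherapeutic drug or to low oxygen. A gene was followed through the probe sets whose platform annotation named it and no other gene. By this rule 9 of the 10 genes had 22 of the 54675 probe sets on the array, and 8 of them passed the filter on low signals, among 12925 genes tested of 19775 with a probe set of their own. The 4 probe sets that name PER1 also name a microRNA gene, so PER1 was not analysed, and PER3 did not pass the filter. The genes were picked with earlier results from these arrays in view. Their differences between hypoxic and untreated cells are therefore given as values with standard errors and no p-value, and calls in those comparisons are only counted, beside the share of all genes.

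SKBR3 is an established line from a human breast tumour and carries extra copies of ERBB2. RNA was measured on 19 Affymetrix arrays in 5 groups: untreated cells (n = 3), cells sorted by flow cytometry as CD44lo (n = 4) or CD44hi (n = 4) after 60 nM epirubicin for 3 days, and cells sorted as CD44lo (n = 4) or CD44hi (n = 4) after 7 days in 1% O2. Epirubicin is an anthracycline that poisons topoisomerase II, and CD44 is a surface receptor for hyaluronan. The labels name no sort for untreated cells, so treatment and sorting cannot be told apart in comparisons with them. The replicates are described as biological, but nothing says that they came from separate cultures, so a p-value here reflects only how these samples vary, which may be technical.

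The circadian clock is a loop of transcription factors. CLOCK or NPAS2 pairs with BMAL1 and activates genes that carry an E-box, among them the PER and CRY genes, whose proteins return to inhibit that pair. BHLHE40 (DEC1) and BHLHE41 (DEC2) are basic helix-loop-helix repressors that bind the same E-boxes, NR1D2 (REV-ERB beta) is a nuclear receptor that represses BMAL1, and DBP and TEF are PAR bZIP activators that bind the D-box of output genes. BHLHE40 is also a known target of hypoxia-inducible factors in many cell types. The labels mention no synchronisation of the cells' clocks.

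The sequences below show where the E-box letters CACGTG lie in the promoters of these genes, since the clock activators and both BHLHE repressors recognise them. RefSeq promoter windows (GRCh38.p14) of 300 bases, 250 before and 50 after each annotated start, were searched on both strands. Of 35116 such windows over all genes, 7.26% held CACGTG, 21.4% held the hypoxia response core ACGTG and 0.886% held the D-box letters TTATGTAA. Every CACGTG also holds ACGTG in both orientations. Capitals mark CACGTG in the short stretches. In the long BHLHE40 stretch they mark that E-box and the hypoxia core in either orientation. The long stretch covers the bases upstream of the start on the plus strand at chr3:4979187-4979436.
BHLHE40: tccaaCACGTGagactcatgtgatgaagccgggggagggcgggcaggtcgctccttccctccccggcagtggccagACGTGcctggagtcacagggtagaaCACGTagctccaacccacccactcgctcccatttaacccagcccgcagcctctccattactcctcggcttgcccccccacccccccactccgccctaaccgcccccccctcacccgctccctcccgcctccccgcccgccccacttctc
BHLHE41, chr12:26125070-26125095, minus strand: gtacgttccgCACGTGagctgggtgc
PER1, chr17:8152562-8152587, minus strand: cacccaggtcCACGTGcgcccgtgtg
NR1D2, chr3:23945956-23945981, plus strand: cgggcggggaCACGTGaggccgctcg
NR1D2, chr3:23946006-23946031, plus strand: gccgcagggaCACGTGggggcggggg
TEF, chr22:41367250-41367275, plus strand: gcgacagctcCACGTGctgcagctgg
TEF, chr22:41381739-41381764, plus strand: cctggccccgCACGTGtctatcttat

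The BHLHE40 window held CACGTG at position -245 from the start, and further matches to the ACGTG core at -174 and -149. The BHLHE41 window held CACGTG at -48 and the PER1 window at -173. NR1D2 held it at -155 and -105 before its second annotated start, and TEF at -195 and -193 before its 2 starts. The windows of PER2, PER3, CRY1, CRY2 and DBP held no CACGTG. Of these, PER2, CRY1 and CRY2 held ACGTG in at least 1 orientation, and PER3 held TTATGTAA at -177. NR1D2 held the reverse complement of that D-box at -194. These matches are letters in a window, not measured binding.

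The E-box repressor BHLHE40 gave signals of 159.0, 117.0 and 75.5 in the 3 untreated samples (mean 117 ± 41.8, SD). In CD44lo cells after epirubicin it gave 194.9, 295.2, 203.1 and 261.5 (239 ± 48.0), and in CD44hi cells after epirubicin 247.9, 417.0, 225.0 and 510.4 (350 ± 137). In CD44lo cells after hypoxia it gave 1191.6, 388.2, 1184.4 and 1539.3 (1076 ± 487), and in CD44hi cells after hypoxia 1575.2, 538.2, 1032.1 and 1491.4 (1159 ± 478). All 16 sorted samples lay above all 3 untreated ones. The lowest hypoxic sample of either sort was the one numbered 2. In order of level the groups ran from untreated through epirubicin CD44lo, epirubicin CD44hi and hypoxia CD44lo to hypoxia CD44hi. Each neighbouring pair overlapped except untreated and epirubicin CD44lo.

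**Figure D1:**
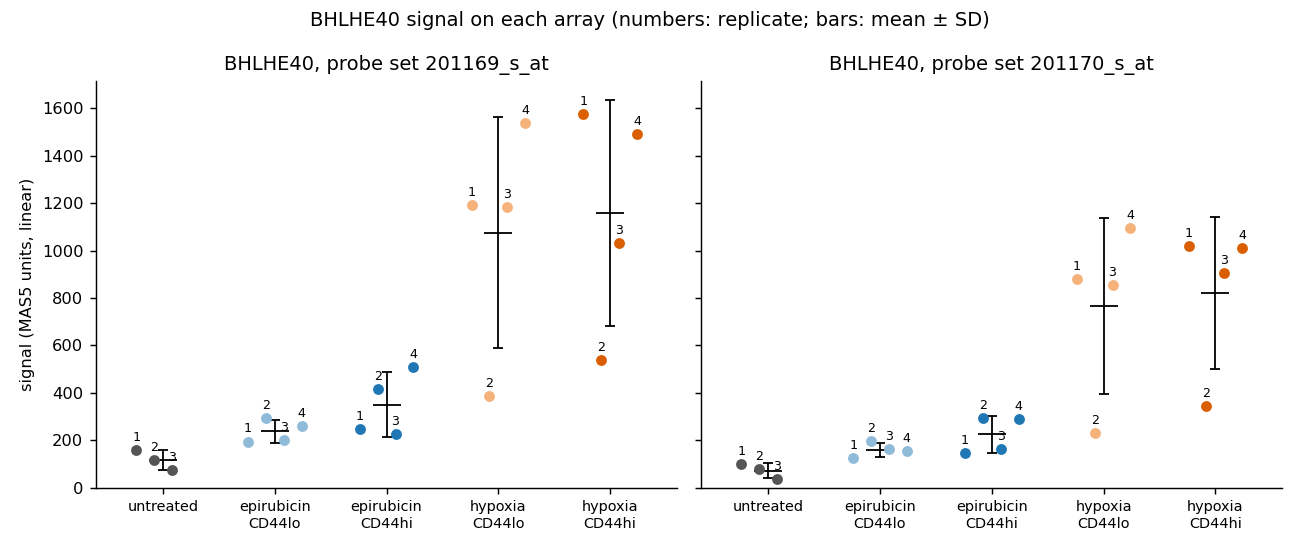
Signal of the 2 BHLHE40 probe sets (vertical axis, linear MAS5 units) in each sample of the 5 groups. Points are samples with their replicate numbers, and bars are the mean ± SD (n = 3 untreated, n = 4 elsewhere). Untreated samples lie at 75.5 to 159.0 on the left panel, and the hypoxic samples numbered 2 lie at 388.2 and 538.2, below the other hypoxic samples.

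Differences are given as log2(signal + 4.2), with 4.2 the 25th percentile of the table, which understates changes of low signals. A gene is called at an adjusted p under 0.05 by limma, adjusted by the Benjamini-Hochberg method across the 12925 genes. BHLHE40 rose by 1.52 ± 0.41 (SE) in CD44hi cells after epirubicin, 2.87-fold on this scale, with an adjusted p of 0.0305 by limma. In CD44lo cells after epirubicin the difference was 1.04 ± 0.41, 2.06-fold, with an adjusted p of 0.183. In hypoxia the difference was 3.05 ± 0.41 in CD44lo cells, 8.28-fold, and 3.21 ± 0.41 in CD44hi cells, 9.22-fold. The other BHLHE40 probe set gave 1.18, 1.61, 3.23 and 3.41 for the same 4 comparisons.

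The epirubicin call for BHLHE40 lay near the threshold. It was lost on leaving out any of the 3 untreated samples or the CD44hi sample numbered 2 or 4 (log2 differences 1.25 to 1.77 over the samples left out, largest adjusted p 0.129). The ACTB 3′ to 5′ signal ratio, a measure of RNA integrity, was 1.21 to 1.27 in untreated samples and up to 1.85 in CD44hi samples after epirubicin. With this ratio as a covariate BHLHE40 was 1.28 higher with an adjusted p of 0.201 by limma. The mean signal of the spiked hybridisation controls was 1986 to 2350 in untreated samples and up to 5818 in epirubicin CD44hi samples, and with it as a covariate the difference was 1.34 with an adjusted p of 0.354.

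Between CD44hi and CD44lo cells BHLHE40 was not called in either treatment. After epirubicin the CD44hi sample was above the CD44lo sample of the same number in 4 of 4 pairs, by 0.14 to 0.95. The mean difference was 0.48 ± 0.38, with a 95% interval from -0.31 to 1.28 and an adjusted p of 1.00 by limma. With the pair as a block the error was smaller, 0.48 ± 0.14 with an interval from 0.18 to 0.79, which leaves out 0, and the adjusted p was 0.48 by limma (unadjusted 0.00479). That block fit also paired the hypoxic samples by number and took a shared error over both treatments. After hypoxia the mean difference without the block was 0.16 ± 0.38, from -0.64 to 0.95. With the block it was 0.16 ± 0.14, from -0.15 to 0.46, an interval that holds 0. The CD44hi sample was above the CD44lo sample of the same number in 2 of 4 pairs. The difference between those 2 effects (hypoxia minus epirubicin) was -0.33, with an interval from -1.45 to 0.80. CD44 itself gave 66.1 ± 13.2 in untreated, 88.0 ± 33.2 and 648 ± 476 in CD44lo and CD44hi after epirubicin, and 205 ± 194 and 1042 ± 481 after hypoxia.

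BHLHE41, the paralogue and fellow E-box repressor, gave 14.8, 16.8 and 21.4 in untreated samples. It gave 11.7 to 22.4 in CD44lo and 18.7, 16.9, 4.8 and 30.7 in CD44hi after epirubicin. After hypoxia it gave 20.3, 19.2, 34.0 and 49.8 in CD44lo and 38.8, 32.6, 38.5 and 40.9 in CD44hi. The hypoxic CD44hi samples all lay above the untreated ones, and the other groups overlapped them. This signal was close to the filter of 16.9, the median of the table, which 1 of 3 untreated, 4 of 8 epirubicin and all 8 hypoxic samples reached. The log2 differences were -0.14 and -0.14 after epirubicin (SE 0.37) and 0.60 and 0.95 after hypoxia, in CD44lo and CD44hi, and none of the 4 was called. Its other 3 probe sets did not pass the filter.

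PER2, a repressor of the CLOCK and BMAL1 pair, gave 90.3, 117.3 and 78.9 in untreated samples. After epirubicin it gave 80.5, 152.0, 71.4 and 106.0 in CD44lo and 88.8, 115.9, 66.1 and 103.7 in CD44hi cells. After hypoxia it gave 124.6, 131.0, 231.2 and 164.1 in CD44lo and 198.0, 112.1, 163.4 and 105.9 in CD44hi cells. The CD44lo hypoxic samples lay above every untreated sample, while CD44hi samples overlapped them. On the log2 scale PER2 differed from untreated by 0.06 and -0.04 after epirubicin (SE 0.28), and 0.72 and 0.55 after hypoxia. The other PER2 probe set gave -0.20, -0.26, 0.72 and 0.42. PER3, a further member of the PER family, reached 16.9 in 1 sample on each of 2 of its 4 probe sets, and its highest signal was 30.4, in a hypoxic CD44hi sample.

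CRY1, the cryptochrome partner of the PER proteins, gave 102.0, 102.8 and 67.4 in untreated samples, and every other group overlapped this range. It ranged from 86.3 to 128.1 in CD44lo and from 67.1 to 121.9 in CD44hi after epirubicin, and from 29.5 to 140.4 in CD44lo and from 82.6 to 127.2 in CD44hi after hypoxia. On the log2 scale CRY1 differed by 0.24, 0.01, -0.19 and 0.25 in those 4 groups (SE 0.35). After epirubicin CRY1 was lower in CD44hi than in CD44lo in 4 of 4 pairs, by 0.23 ± 0.32 on average with an adjusted p of 1.00 by limma.

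CRY2, the second cryptochrome, gave 20.5, 21.5 and 26.7 in untreated samples. After epirubicin it gave 37.5, 44.9, 38.7 and 29.3 in CD44lo and 21.4, 24.8, 22.5 and 48.1 in CD44hi cells. After hypoxia it gave 54.8, 25.5, 55.7 and 77.6 in CD44lo and 71.6, 41.0, 61.9 and 62.0 in CD44hi cells. The hypoxic CD44hi samples and the epirubicin CD44lo samples lay above all untreated samples, and in hypoxic CD44lo only the sample numbered 2 overlapped them. The log2 differences in hypoxia were 1.01 ± 0.31 in CD44lo and 1.21 ± 0.31 in CD44hi. After epirubicin CD44lo gave 0.62 ± 0.31 with an adjusted p of 0.300, and CD44hi 0.24 ± 0.31 with an adjusted p of 0.683, by limma.

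NR1D2, which represses BMAL1 transcription, gave 661.1, 726.4 and 736.0 in untreated samples, 548.4 to 927.1 in CD44lo and 632.7 to 844.2 in CD44hi after epirubicin. After hypoxia it gave 525.1, 277.5, 802.1 and 942.5 in CD44lo and 855.8, 262.1, 419.2 and 780.1 in CD44hi cells. All 4 groups overlapped the untreated range, and the hypoxic samples numbered 2 were the lowest of their groups. The log2 differences were -0.29 and -0.44 in hypoxia (SE 0.36), and -0.005 and 0.06 after epirubicin. Without the hypoxic samples numbered 2 the hypoxic values were 0.056 and -0.11. The other NR1D2 probe set gave 0.46, 0.50, -0.18 and -0.00 in the 4 comparisons.

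DBP, a D-box activator whose own transcription follows the clock, gave 96.8, 107.8 and 135.6 in untreated samples. After epirubicin it gave 94.7, 83.4, 73.9 and 55.1 in CD44lo and 87.8, 51.7, 55.9 and 55.9 in CD44hi cells. After hypoxia it gave 82.0, 74.4, 56.0 and 39.6 in CD44lo and 46.4, 58.6, 47.6 and 43.8 in CD44hi cells. All 16 sorted samples lay below all untreated samples. The log2 differences were -0.84 ± 0.25 in hypoxic CD44lo and -1.14 ± 0.25 in hypoxic CD44hi. After epirubicin they were -0.55 ± 0.25 in CD44lo (adjusted p = 0.252 by limma) and -0.83 ± 0.25 in CD44hi (adjusted p = 0.0526 by limma). The other DBP probe set, which reached the filter in 4 samples, gave 0.07, -0.59, -0.05 and 0.04.

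TEF, the other PAR bZIP factor, gave 31.4, 32.4 and 40.0 in untreated samples and 72.2, 39.9, 100.5 and 53.2 in CD44lo and 102.0, 26.7, 72.3 and 78.3 in CD44hi after hypoxia. The hypoxic sample numbered 2 was the lowest in both sorts, and it overlapped or lay below the untreated samples. After epirubicin TEF ranged from 20.5 to 65.3. For TEF the log2 differences were 0.80 and 0.80 in hypoxia (SE 0.39), and 0.09 and 0.06 after epirubicin.

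**Figure D2:**
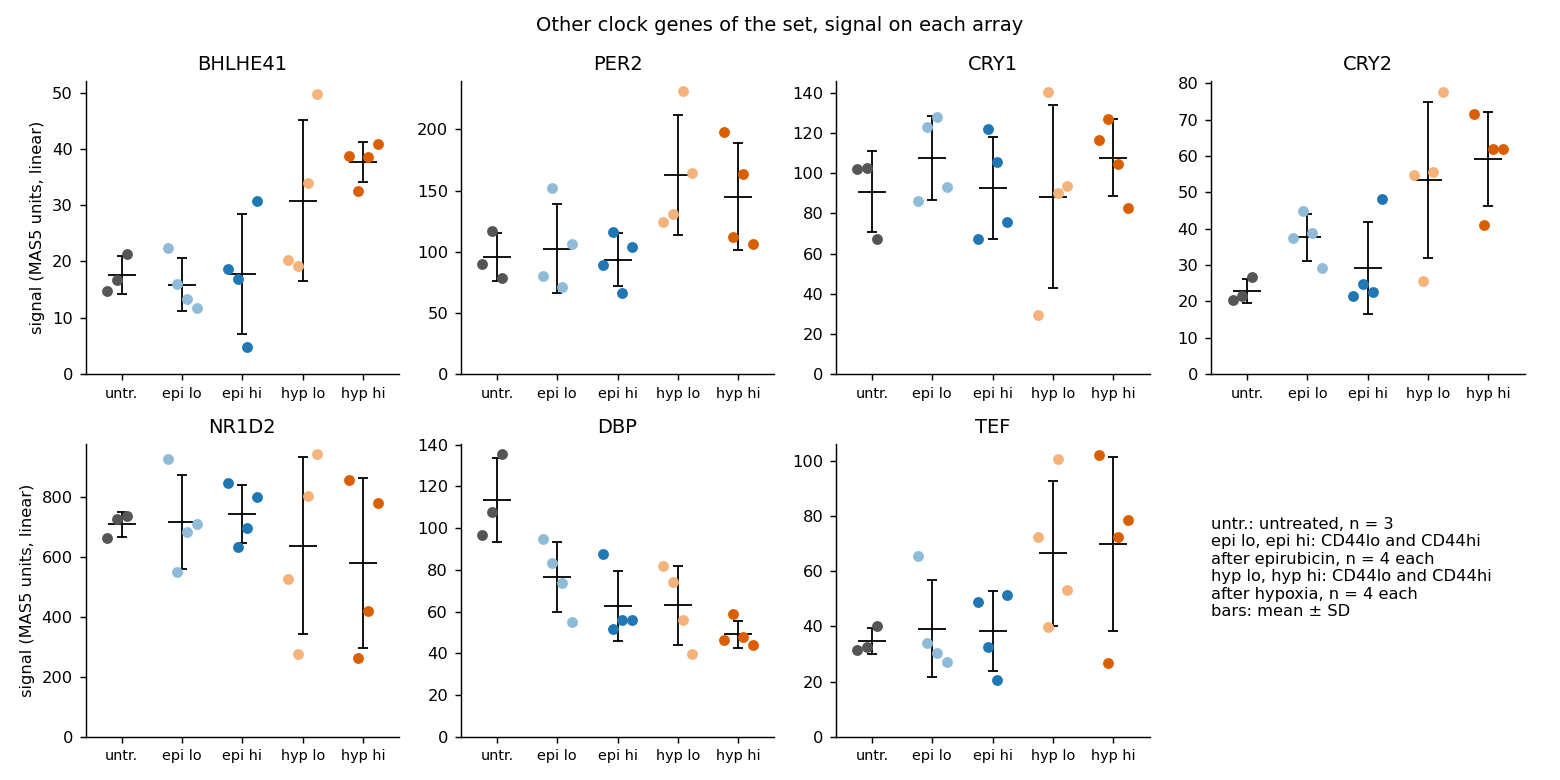
Signal of the other 7 tested genes (vertical axis, linear MAS5 units) in each sample, with the mean ± SD for each group (n = 3 untreated, n = 4 elsewhere). DBP lies below the untreated range in every sorted sample, and CRY2 lies above it in all hypoxic samples but the CD44lo sample numbered 2.

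Counted over the 8 tested genes, 0 were called after epirubicin in CD44lo cells, where 2.82% of all genes were called (2.26% higher and 0.565% lower). In CD44hi cells 1 was called (BHLHE40), where 6.42% of all genes were (4.63% higher and 1.79% lower). The groups did not overlap for 3 of the 8 in the first of these comparisons (BHLHE40, CRY2 and DBP), against 23.9% of all genes, and for 2 in the second (BHLHE40 and DBP), against 25.6%. In each hypoxic sort 2 genes were called higher (BHLHE40 and CRY2) and 1 lower (DBP). Over all genes 22.5% were called in hypoxic CD44lo (10.7% higher and 11.7% lower), and 26.9% in hypoxic CD44hi (12.8% and 14.1%). Hypoxic and untreated samples did not overlap for 3 of the 8 genes in CD44lo (BHLHE40, PER2 and DBP), against 31.7% of all genes, and for 4 in CD44hi (BHLHE40, BHLHE41, CRY2 and DBP), against 38.8%. The hypoxia comparisons were in view when the genes were chosen. Nothing is therefore read from these counts, from the hypoxia calls kept or lost below, or from the hypoxia medians. In CD44lo, CRY2 was still called on leaving out 2 of the 7 samples in turn and was not with only the compared groups fitted or with the hybridisation covariate, and DBP was still called on leaving out 4 of the 7. In CD44hi both were called whichever of the 7 samples was left out. The median difference of the 8 genes was 0.66 in hypoxic CD44lo and 0.68 in hypoxic CD44hi, beside 0.02 and 0.003 over all genes. After epirubicin it was 0.07 and 0.04, beside 0.03 and 0.003. The 4 comparisons share the 3 untreated samples.

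**Figure D3:**
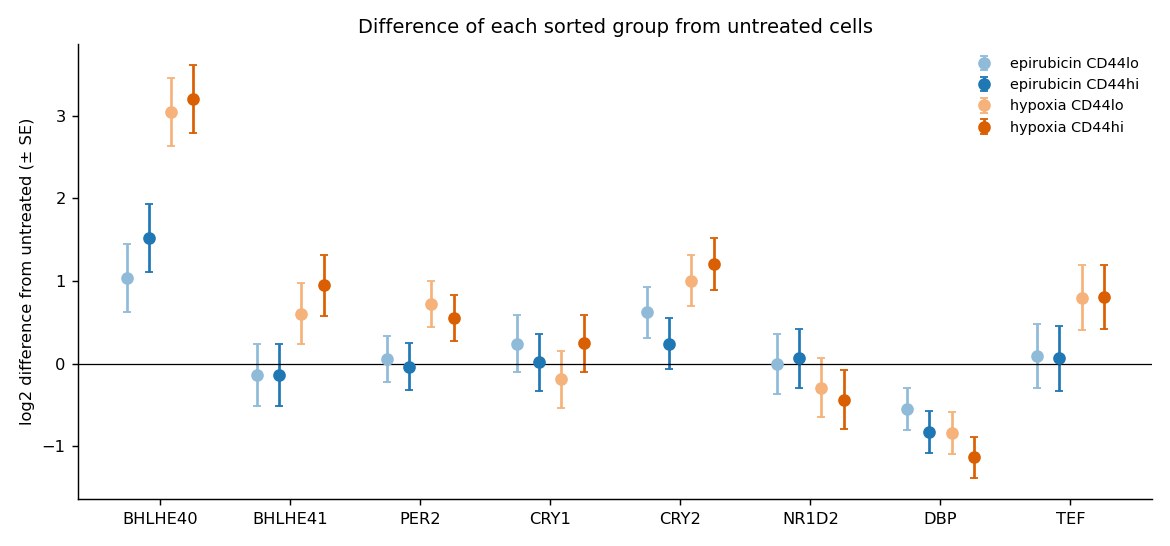
Difference of each sorted group from untreated cells for the 8 tested genes (vertical axis, log2 of signal plus offset; points are the estimates and bars their SE). BHLHE40 lies at 1.04 and 1.52 after epirubicin and at 3.05 and 3.21 after hypoxia, and DBP lies between -0.55 and -1.14.

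Between CD44hi and CD44lo none of the 8 was called after either treatment, nor in the difference between treatments. Over all genes 3 of 12925 were called after epirubicin (0.0232%), 0 after hypoxia and 0 in the difference, with 312, 889 and 265 genes at an unadjusted p under 0.05 by limma. A block on the replicate number also pairs the hypoxic samples. With it, 9 and 29 genes were called, and again 0 of the 8. The median difference of the 8 genes, CD44hi minus CD44lo, was -0.06 after epirubicin and 0.08 after hypoxia.

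The hypoxic samples numbered 2 also stood apart on genes of the hypoxia response. Over 11 such genes (among them VEGFA, SLC2A1 and EGLN3, which serve blood vessel growth, glucose uptake and oxygen sensing), the mean log2 level relative to untreated was 1.38 and 1.44 in the samples numbered 2, and 2.19 to 2.46 in the other 6 hypoxic samples. It was 0.05 to 0.31 in epirubicin samples. BHLHE40 on the same scale was 1.75 and 2.22 in the samples numbered 2, and 3.15 to 3.76 in the other hypoxic ones. Epirubicin samples lay at 0.77 to 2.15, above the untreated samples. The hypoxia list did not move as one after epirubicin. ADM, from this list, was called higher in CD44hi (1.77 ± 0.45, adjusted p = 0.0213 by limma), and PDK1, a kinase that inhibits pyruvate dehydrogenase, was called lower in both sorts (-1.12 and -1.11, SE 0.17, adjusted p = 0.00155 and 0.000533). The list was called higher in hypoxia in 11 of 11 genes, by a median of 1.45 in CD44lo and 1.59 in CD44hi. Without the samples numbered 2 the BHLHE40 differences were 3.48 and 3.53.

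**Figure D4:**
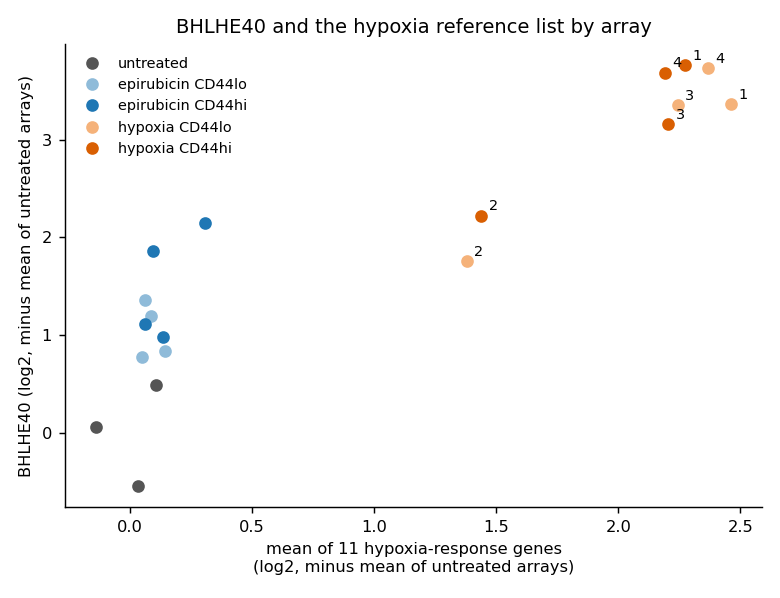
BHLHE40 (vertical axis) against the mean of 11 hypoxia response genes (horizontal axis) in each of the 19 samples, both as log2 levels minus the mean of the untreated samples. Numbers give the replicate of hypoxic samples. The samples numbered 2 lie at 1.38 and 1.44 on the horizontal axis and the other hypoxic samples at 2.19 to 2.46.

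The closest profiles to BHLHE40 over the 19 samples, among 12917 other genes, were ADM (Pearson r = 0.978), SOCS3 (0.959), ERO1A (0.958), PKP2 (0.957) and SC5D (0.952). ADM encodes the vasodilator adrenomedullin, SOCS3 a suppressor of cytokine signalling, ERO1A an oxidase of the endoplasmic reticulum, PKP2 a desmosomal plaque protein and SC5D a sterol desaturase. The most opposed were ITPK1 (-0.966), PCCB (-0.955) and COASY (-0.952), which encode an inositol phosphate kinase, a propionyl-CoA carboxylase subunit and a coenzyme A synthase. The samples fall into groups, so these values mainly describe group means and carry no test. ADM is in the hypoxia list above. Among the other 22 clock genes tested, the one closest to CRY2 (r = 0.844) and to PER2 (0.708) was BHLHE40, and the one closest to DBP was HLF (0.814).

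Of 20 other clock genes on a list assembled with the members known, 15 were tested, and the following calls are by limma over all genes. Earlier results of these data were also known when this list was made. The p-values given for its genes, in hypoxia and after epirubicin, are therefore not an independent test. After epirubicin 2 were called higher in CD44lo and 4 in CD44hi, with 0 lower. In hypoxia 6 were called higher and 3 lower in CD44lo, and 5 higher and 3 lower in CD44hi. Of all genes, 2.26% and 4.63% were called higher in CD44lo and CD44hi after epirubicin. In hypoxia 10.7% were called higher and 11.7% lower in CD44lo, and 12.8% and 14.1% in CD44hi. On the probe sets tested, BMAL2, RORA and CIART were under the filter in all untreated samples. They entered the test through the groups where they are high. They make up 1 of the 4 called higher in epirubicin CD44hi, 3 of the 6 in hypoxic CD44lo and 2 of the 5 in hypoxic CD44hi, and are described without p-values. Of the other 12 genes, 2 and 3 were called higher after epirubicin, and 3 higher and 3 lower in each hypoxic sort. The medians of the 15 were 0.02 and -0.23 after epirubicin and 0.37 and 0.36 after hypoxia. Between CD44hi and CD44lo, 0 of the 15 were called after either treatment.

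NFIL3, a bZIP repressor that competes with DBP, TEF and HLF at D-boxes, gave 118.2, 135.0 and 181.3 in untreated samples and 239.7 to 556.6 in every sorted sample. The sorted samples all lay above the untreated ones. It rose by 1.15 ± 0.24 and 1.07 ± 0.24 after epirubicin in CD44lo and CD44hi (adjusted p = 0.0132 and 0.0118 by limma), and by 1.55 and 1.45 after hypoxia (adjusted p = 0.000167 and 0.000204). The epirubicin calls were lost without untreated sample 1 or 2 (log2 difference 1.02 to 1.32 in CD44lo and 0.94 to 1.24 in CD44hi, over each sample left out). With the hybridisation controls as a covariate they were lost too (0.90 in CD44lo and 0.67 in CD44hi, adjusted p = 0.111 and 0.404 by limma), and in CD44hi also with the ACTB ratio (0.87, adjusted p = 0.116).

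NPAS2, the paralogue of CLOCK that partners BMAL1, gave 20.7, 30.2 and 26.7 in untreated samples. It gave 42.1 to 58.9 in CD44lo and 42.3 to 93.8 in CD44hi after epirubicin, and 47.3 to 158.2 in CD44lo and 71.5 to 167.6 in CD44hi after hypoxia. All sorted samples lay above the untreated ones. NPAS2 rose by 1.33 ± 0.35 in CD44hi cells after epirubicin (adjusted p = 0.0291 by limma), and by 1.47 and 1.67 in CD44lo and CD44hi after hypoxia (adjusted p = 0.00563 and 0.00156). The epirubicin call was lost without any of the 3 untreated samples or the CD44hi sample numbered 2 or 4, and with the ACTB ratio or the hybridisation controls as a covariate (adjusted p = 0.156 and 0.280 by limma). The hypoxia calls were kept whichever compared sample was left out. In hypoxia the other NPAS2 probe sets were also called in both sorts, apart from a probe set at 0.64 and 0.53. In epirubicin CD44hi the other probe set at 1.25 was called, and those at 1.23, 1.60 and 0.85 were not. The probe set at 1.25 was under the filter in all untreated samples (11.6 to 14.8). It entered the test through the treated groups where it is high, so nothing is read from its calls, in hypoxia either. CLOCK did not pass the threshold in either hypoxic sort (-0.59 ± 0.21 and -0.57 ± 0.21, adjusted p = 0.0520 and 0.0504 by limma). A further CLOCK probe set was called lower in both (-0.58 and -0.56), and another was not called in either (-0.37 and -0.22).

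BMAL2, a paralogue of BMAL1, gave 5.0, 1.3 and 5.6 in untreated samples, 3.7 to 16.2 in CD44lo and 11.3 to 36.0 in CD44hi after epirubicin, and 11.1 to 43.6 in CD44lo and 27.7 to 102.4 in CD44hi after hypoxia. The epirubicin CD44hi and all hypoxic samples lay above the untreated ones. The log2 differences were 0.62 and 1.67 after epirubicin and 1.65 and 3.01 after hypoxia, in CD44lo and CD44hi (SE 0.46). They depend on the offset because the untreated signals were close to it. A further BMAL2 probe set gave -0.06, 0.12, 0.53 and 1.67 in the same order, and another gave 0.94, 1.85, 1.68 and 3.13. CIART, a repressor of the clock activators, gave 6.1 to 10.5 in untreated samples, up to 55.3 in hypoxic CD44lo and 22.1 to 43.9 in hypoxic CD44hi samples. All hypoxic samples lay above the untreated ones, with log2 differences of 1.55 and 1.53 (SE 0.44). RORA, an activator of BMAL1 transcription, gave 7.4 to 14.1 in untreated samples and 18.2 to 40.1 in hypoxic ones. Its log2 differences in hypoxia were 1.13 and 0.96 (SE 0.39). After epirubicin RORA gave 15.3 to 42.8 in CD44lo, all above the untreated samples, and 6.8 to 34.8 in CD44hi, with differences of 1.06 and 0.40. In hypoxia the other RORA probe sets past the filter gave 0.87 and 0.49, 0.73 and 0.55, and 0.72 and 0.61, and were not called. The first of these reached the filter in 2 untreated samples.

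CSNK1E, a kinase that phosphorylates PER proteins, gave 78.0 to 85.1 in untreated samples and 114.4 to 169.8 in sorted samples, with no overlap. It rose by 0.71 ± 0.17 and 0.65 ± 0.17 after epirubicin (adjusted p = 0.0291 and 0.0294 by limma) and by 0.82 and 0.77 after hypoxia (0.00236 and 0.00277). Its other probe set gave 0.29, 0.29, 0.14 and 0.34 and was not called in any of the 4. The epirubicin calls were lost without any 1 of the 3 untreated samples, and also without CD44lo sample 1, 2 or 3, or CD44hi sample 2 or 3.

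HLF, the third PAR bZIP factor beside DBP and TEF, gave 44.3, 38.1 and 43.3 in untreated samples and at most 23.5 in every sorted sample. It fell by 1.60 ± 0.55 in hypoxic CD44lo and by 2.22 ± 0.55 in hypoxic CD44hi (adjusted p = 0.0397 and 0.00502 by limma). Without any of the 3 untreated samples or CD44lo sample 3 or 4 the CD44lo call was lost. It was lost with the ACTB ratio or the hybridisation controls as a covariate. An offset of 1, no filter and averaging the HLF probe sets each lost it too. Of 12 alternative settings 7 kept it (-1.92 to -1.06), and all 12 kept the CD44hi call (-2.89 to -1.35). Hypoxic HLF signals went down to 3.7 in CD44lo and 0.5 in CD44hi, under the offset. The sizes of both falls therefore depend on the offset. After epirubicin the differences were -1.36 and -1.77 (adjusted p = 0.190 and 0.0551). Of its other 2 probe sets, 1 was called in both hypoxic sorts (-1.70 and -2.67) and 1 in neither (-0.24 and -1.08).

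TIMELESS and TIPIN, which stabilise the replication fork and have been linked to the clock, gave 343.4 to 376.3 and 70.8 to 138.8 in untreated samples. TIMELESS lay below its untreated range in every sorted sample. Neither gene was called after epirubicin (-0.51 and -0.52 for TIMELESS, -0.40 and -0.42 for TIPIN, in CD44lo and CD44hi). TIMELESS fell by 2.10 ± 0.28 and 1.83 ± 0.28 in hypoxic CD44lo and CD44hi (adjusted p = 3.43e-05 and 8.4e-05 by limma). TIPIN fell by 1.07 ± 0.33 and 1.26 ± 0.33 (adjusted p = 0.0233 and 0.00717), and its calls were lost without untreated sample 1 in both sorts, and without untreated sample 2 or CD44lo sample 1 or 4 in CD44lo. In the same comparisons all 10 of 10 mitosis genes were called lower, with medians of -2.68 and -2.87. The part of cell division in the TIMELESS and TIPIN values was not tested.

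**Figure D5:**
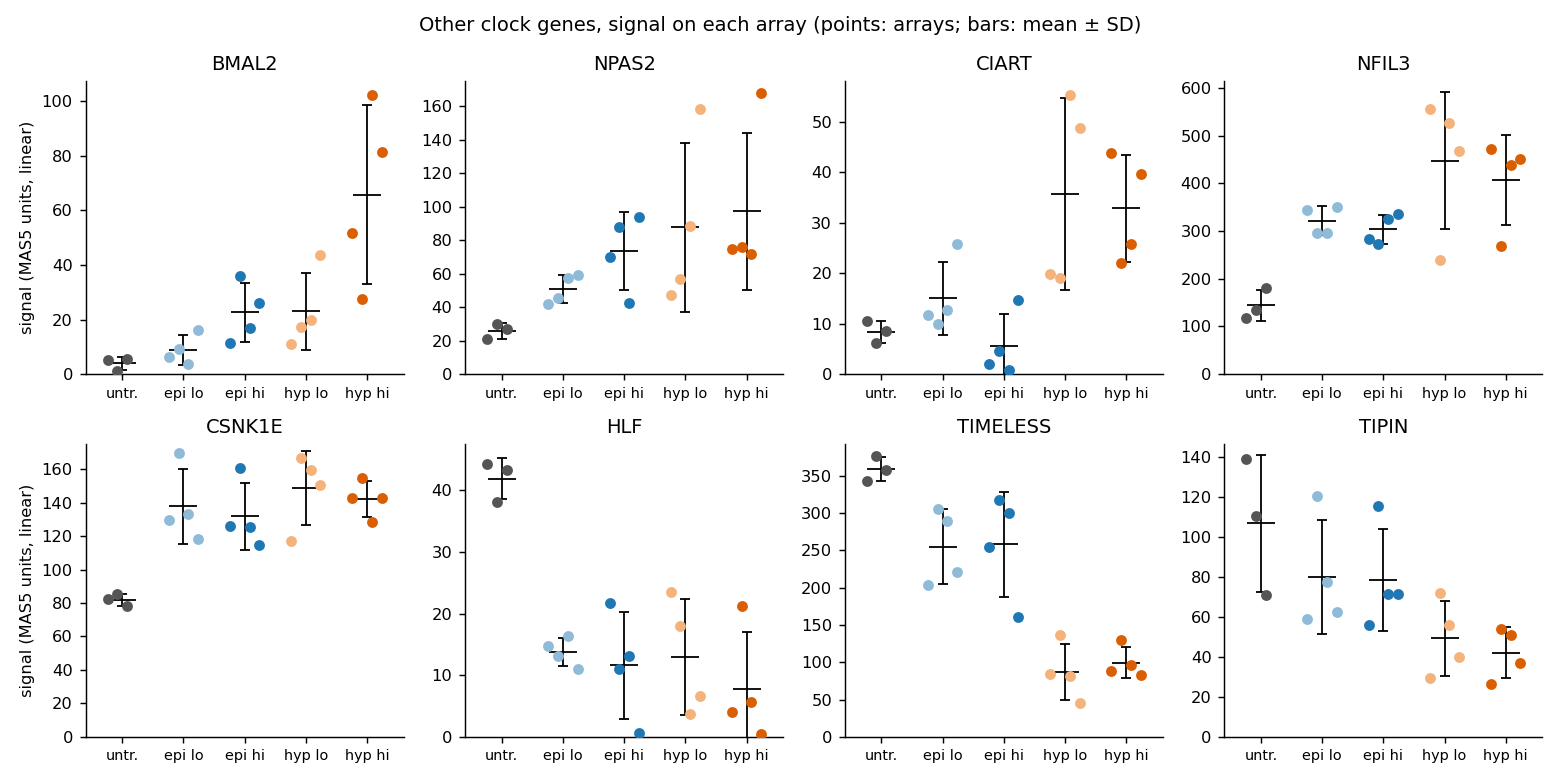
Signal of 8 other clock genes past the threshold in both hypoxic sorts, BMAL2 and CIART being under the filter in all untreated samples (vertical axis, linear MAS5 units) in each sample, with the mean ± SD for each group (n = 3 untreated, n = 4 elsewhere). NFIL3, NPAS2 and CSNK1E lie above the untreated range in every sorted sample, and HLF and TIMELESS lie below it.

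Of the 7 SKBR3 markers, 6 gave at least 535.7 in every sample, and CDH1 (E-cadherin, which SKBR3 is known to lack) reached 16.9 in 5 of 19 samples with a highest signal of 35.4. The 4 immune markers with a probe set summed to 12.7 to 38.3, and PTPRC, CD3E and CD14 were under 16.9 in all samples. CD79A reached 16.9 in 8 of 19 samples, with a highest signal of 26.1. The 7 stromal and endothelial markers summed to 82.0 to 99.9 in untreated samples, 182 to 250 and 208 to 413 in CD44lo and CD44hi after epirubicin, and 131 to 217 and 162 to 191 after hypoxia. CDH5 gave 31.1 to 320.5 of this and reached 16.9 in all 19 samples. COL1A1 reached it in 18 samples (14.6 to 47), PECAM1 in 3, COL1A2 in 2, and PDGFRB and VWF in 1 each. COL3A1 was under 16.9 in all samples. The part of these markers in the clock gene values was not tested. In bulk RNA, fewer cells of a type and less RNA per cell cannot be told apart.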

How the data were processed

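The deposited values are intensity per probe set on a linear scale, made by the authors with MAS5 per the submitters' processing notes, with version and settings not given in the sources used here. The mean after trimming 2% at each end was 100.01 on every array, so no further scaling was applied. Probe sets were named through the platform annotation, with 41091 naming 1 gene, 1801 several, 11721 none and 62 being controls. Each gene was represented by its probe set with the highest mean, with names ending in _x_at taken only for genes with nothing else. Genes with at least 3 samples at or above 16.9, the median of the table, were tested on log2(signal + 4.2) with limma 3.58.1 (R 4.3.3), 5 group means over 19 samples and a variance trend, two-sided. The script was tested on simulated data. The number of samples limits the precision.

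The 10 genes, the other lists and the alternatives were chosen with earlier results of these data known. All 10 were to be named, and other clock genes where called in a comparison. Genes closest to BHLHE40 were the 5 with the highest and the 3 with the lowest correlation. CLOCK, CDH1 and PDK1 were named after their values were seen.

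No 2 samples held identical values, and replicates correlated at 0.919 to 0.984. Samples with the same number in CD44lo and CD44hi after epirubicin deviated together (correlations of deviations from group means 0.375, 0.546, 0.114 and 0.461). After hypoxia the correlations were -0.0408, 0.633, 0.279 and 0.543, so 3 of 4 pairs deviated together. The labels do not say whether samples of the same number share a culture. Taking them as pairs rests on these correlations alone, and shared handling of the arrays was not tested. The main fit took no pairs. The block fits between CD44hi and CD44lo took the numbers as pairs after both treatments, although the hypoxic samples numbered 1 did not deviate together. Against untreated the correlations were -0.279 to 0.117, and there the samples share only a number. Promoter sequences are from RefSeq (GRCh38.p14).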

Additional observations from a re-analysis of the deposited data

Results flagged for a closer look

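Of 32 groups of 4 samples (8 genes in 4 groups), 2 held a sample far from the other 3, where chance gives about 1 in 20. In CD44hi cells after epirubicin the CRY2 signal of replicate 4 was 48.1 and the other 3 samples lay at 21.4 to 24.8. In the same group the DBP signal of replicate 1 was 87.8 and the others lay at 51.7 to 55.9. Without that DBP sample the difference from untreated was -0.99 with an adjusted p of 0.027 by limma.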

How the results depend on the processing

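No result changed direction while called. The number of the 8 genes called after epirubicin in CD44lo went from 0 to 1 when only the compared groups were fitted (BHLHE40, adjusted p 0.0184 by limma). In CD44hi it went from 1 to 2 with an offset of 16 or with only the compared groups, where DBP was added (adjusted p 0.0461 and 0.0412). It went to 0 with no variance trend (BHLHE40 0.0521), with the ACTB ratio or the hybridisation controls as a covariate, and without the epirubicin samples numbered 4 (0.112). It ranged from 0 to 2 on leaving out 1 sample. In hypoxic CD44lo it went from 3 to 1 with only the compared groups and to 5 without the samples numbered 2. Of all genes 29.8% were then called. The number ranged from 1 to 4 on leaving out 1 sample, and in hypoxic CD44hi that range was 3 to 4. In hypoxic CD44hi BHLHE41 was added with an offset of 16 (1645 of all genes called higher and 1834 lower) or with only the compared groups (1872 and 2021). TEF was added there without the samples numbered 2, with 30.9% of all genes called. The DBP calls in hypoxia were lost on averaging its probe sets.

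Of all genes, 365 called in epirubicin CD44lo became 688 with every probe set as a feature, 1190 with only the compared groups, 108 with the hybridisation covariate, 210 without the samples numbered 4, and 74 to 446 on leaving out 1 sample. For epirubicin CD44hi, 830 became 1631, 1356, 108, 462 and 218 to 898 in the same order, and 279 with the ACTB covariate. With every probe set as a feature, 2903 and 3475 in hypoxic CD44lo and CD44hi became 5088 and 6373, and leaving out 1 sample gave 1625 to 3759 and 2320 to 3774. Between CD44hi and CD44lo after epirubicin, 3 became 0 with only the compared groups, 1 with an offset of 16, the hybridisation covariate or no samples numbered 4, and 1 to 4 on leaving out 1 sample. After hypoxia 0 became 1 with an offset of 16 and 0 to 6 on leaving out 1 sample.

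With the replicate number as a block, genes called in epirubicin CD44lo rose to 600. Between CD44hi and CD44lo they rose to 9 after epirubicin and 29 after hypoxia, with the numbers taken as pairs. In comparisons with untreated cells the block groups samples that share only a number, so its values there are given without a reading. The BHLHE40 difference in epirubicin CD44hi was 1.36 (adjusted p 0.0255 by limma). The block changed no call among the 8 genes, and HLF was called in epirubicin CD44hi under it (adjusted p 0.048). In the paired check, every epirubicin sample correlated best with its own number, and 3 of 4 pairs did after hypoxia.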
